A study of Mus musculus with 2 samples.

Results

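Heat shock proteins and small chaperones were followed as a set of 10 genes (Hspa1a, Hspa1b, Hsph1, Dnajb1, Dnaja1, Hsp90aa1, Hspa8, Hspb1, Hspb8 and Cryab) of the 32285 genes counted in 1 single-cell gene expression library. The genes were chosen by name after their levels in stromal and neutrophil cells, and in the ovariectomized and sham pools, had been seen, so the values of both contrasts are given as a description without a test. The cells came from femurs and vertebrae of female BALB/c mice that were ovariectomized (OVX) or sham operated at 10 weeks of age and killed 4 weeks later, with 20 mice pooled per condition. The periosteum was taken off, the marrow was rinsed out of the femurs, and the bones were digested with trypsin and then overnight with collagenase D, and cells were sorted on CD11b, F4/80 and CD68. OVX cells carried hashtag antibody 1 and sham cells hashtag antibody 2, and both went through 1 droplet reaction. There was thus 1 pool per condition, and no replicate. All intervals below are 95% intervals that cover counting error only, since cells of 1 pool are not replicates of a condition.

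Heat shock proteins keep other proteins folded. HSP70 proteins bind exposed stretches of unfolded chains in a cycle of ATP hydrolysis that J-domain proteins (Dnaj genes) start and nucleotide exchange factors such as HSP110 end, HSP90 receives clients from HSP70, and small heat shock proteins hold unfolded chains without ATP. Heat, oxidants and other protein-damaging conditions release the factor HSF1, which binds arrays of inverted GAA units in the promoters of the inducible members, while Hspa8 is made in nearly all cells without stress.

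The library held 2349 barcodes (500 to 141565 unique molecular identifiers, or UMIs, per barcode, median 4387). The labels name 1037 OVX and 1084 sham cells as loaded, and the hashtags assigned 1059 barcodes to OVX, 981 to sham, 78 to both and 231 to neither. The labels call the cells macrophages, and the data went against that label for most of them. Clusters made without the 10 genes and without 87 other chaperone genes gave 2022 neutrophil-like cells (86.1%, S100a8 at 111018 UMIs per 1000000, or CPM). They also gave 210 stromal-like cells (8.94%, Prg4 at 25948 and Dcn at 16513 CPM) and a cluster of 117 cells led by Pf4 and Arg1. In that cluster 11 of 12 macrophage markers and 2 of 3 platelet or megakaryocyte markers (Pf4 and Ppbp, not Itga2b) had UMIs. In stromal-like cells the macrophage marker Adgre1 (F4/80) was at 0 UMIs in 210 cells, C1qa was at 0, Itgam (CD11b) was at 23.6 CPM against 1775 in neutrophil-like cells, and the leukocyte gene Ptprc was at 5.85 CPM against 553. The 12 macrophage markers summed to 35.3 CPM in stromal-like, 111 in neutrophil-like and 5523 CPM in Arg1 and Pf4 cells, and 7, 9 and 11 of them had UMIs. All 12 stromal markers had UMIs in the stromal-like cells (54368 CPM in all), as did 6 of 6 chondrocyte markers (3356 CPM), 18 of 20 neutrophil markers (4086 CPM), 4 of 4 endothelial markers (63.9 CPM) and 4 of 7 muscle or pericyte markers (9.87 CPM). In neutrophil-like cells 11 of 12 stromal markers (274 CPM) and 5 of 6 chondrocyte markers (20.5 CPM) had UMIs too, so the classes differed by level. Prg4 and Dcn, by which the stromal-like cluster was picked, made most of its stromal marker sum. Other stromal markers were low there, such as Col1a1 (17.0 CPM), Col3a1 (22.3 CPM) and Mfap5 (4.02 CPM).

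Sequences of the start regions were available for 7 of the 10 genes (RefSeq, GRCm38.p6), and not for Hsp90aa1, Hspa8 and Cryab. They were searched because the inducible members of this family share binding sites of HSF1. A pair of inverted units was written as GAANNTTC or TTCNNGAA, each of which reads the same on both strands, and pairs can overlap. In the 250 bases before the start, 5 of the 7 genes held at least 1 pair in at least 1 window, compared with 14.5% of 27025 genes, and 13 of 73 genes of the other chaperone lists (17.8%) did. These were Hspa1a, Hspa1b, Hspb1, Hsph1 and Dnaja1 (the last in 1 of its 3 windows). Dnajb1 and Hspb8 had no pair in these windows. A longer array of 3 inverted units in a row, in the form searched, was in 0 of the 7 genes. It was in 0.514% of 27025 genes and in 4.11% of the 73 genes of the other chaperone lists. The members thus held pairs but not this longer array. Below are the 250 bases before the start of the HSP70 pair Hspa1a (chr17:34972157-34972406, minus strand) and Hspa1b (chr17:34959239-34959488, minus strand) and of the small heat shock protein gene Hspb1 (chr5:135887669-135887918, plus strand), 5′ to 3′, with the pairs in capitals. They are shown because these 3 genes held a pair and were among the 4 members 2-fold or more lower in OVX than in sham stromal-like cells. Hsph1 and Dnaja1 also held a pair, and their log2 ratios of OVX over sham were -0.52 and -0.37. Without a pair, Dnajb1 was at -0.78 and Hspb8 at -0.34. Whether pairs and OVX levels are linked was not tested.
Hspa1a: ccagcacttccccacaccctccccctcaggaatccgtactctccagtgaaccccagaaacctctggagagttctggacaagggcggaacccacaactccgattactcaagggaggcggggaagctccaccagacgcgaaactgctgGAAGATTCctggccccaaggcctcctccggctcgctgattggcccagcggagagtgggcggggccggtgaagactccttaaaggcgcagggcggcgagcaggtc
Hspa1b: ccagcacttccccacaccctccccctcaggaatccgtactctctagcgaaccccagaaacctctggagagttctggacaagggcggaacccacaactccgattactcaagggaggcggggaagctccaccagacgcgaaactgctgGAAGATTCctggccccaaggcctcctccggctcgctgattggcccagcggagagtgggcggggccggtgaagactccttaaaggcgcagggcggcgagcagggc
Hspb1: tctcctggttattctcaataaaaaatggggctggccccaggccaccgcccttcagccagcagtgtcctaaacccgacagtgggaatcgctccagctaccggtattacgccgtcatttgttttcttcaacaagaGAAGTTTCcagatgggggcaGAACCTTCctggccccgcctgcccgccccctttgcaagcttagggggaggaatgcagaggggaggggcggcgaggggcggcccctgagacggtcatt
The Hspa1a and Hspa1b stretches were the same at 247 of 250 bases (98.8%), and in both the pair began 104 bases before the start. Hspb1 held 2 pairs, 117 and 97 bases before its start, and Hsph1 held 1 pair, 54 or 33 bases before the start depending on which of its 2 annotated starts is used. A match to these letters is not a measured binding site.

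Hspa1a (chr17:34969190-34972156) and Hspa1b (chr17:34956436-34959238) are neighbouring genes on the minus strand of GRCm38. Their coding sequences were 99.5% identical, and their proteins were identical at 641 of 642 aligned residues, but the sequences after the stop codon were 51.4% identical. The library was read from the 3′ end, and reads after the stop codon can tell the copies apart. Reads in the coding part could mostly not be given to one copy. Their number was not examined, so the split of UMIs between Hspa1a and Hspa1b keeps some uncertainty. Hspb1 lies at chr5:135887919-135889563 and Cryab at chr9:50751325-50756636, both on the plus strand.

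To see which cells of the preparation carried the chaperone genes, stromal-like cells were compared with neutrophil-like cells. All 10 genes were higher in stromal-like cells, from 3.20-fold for Dnaja1 to 402-fold for Hspb8. Together they made 6569.8 CPM of stromal-like and 753 CPM of neutrophil-like UMIs. A level 2-fold or more higher was reached by 10 of 10 members, and by 48.3% of the 3821 genes that reached 50 CPM in a class, so that stromal-like cells were higher for a large share of all genes as well. The median log2 ratio was 5.11 for the members and 0.90 for all 3821 genes. Relative to that median 8 of 10 members were 2-fold or more higher, with Dnajb1 at a log2 ratio of 0.99 and Dnaja1 at 0.78, and the split of all genes into 2-fold higher and lower went from 48.3% and 24.5% to 36.4% and 36.0%.

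**Figure D1:**
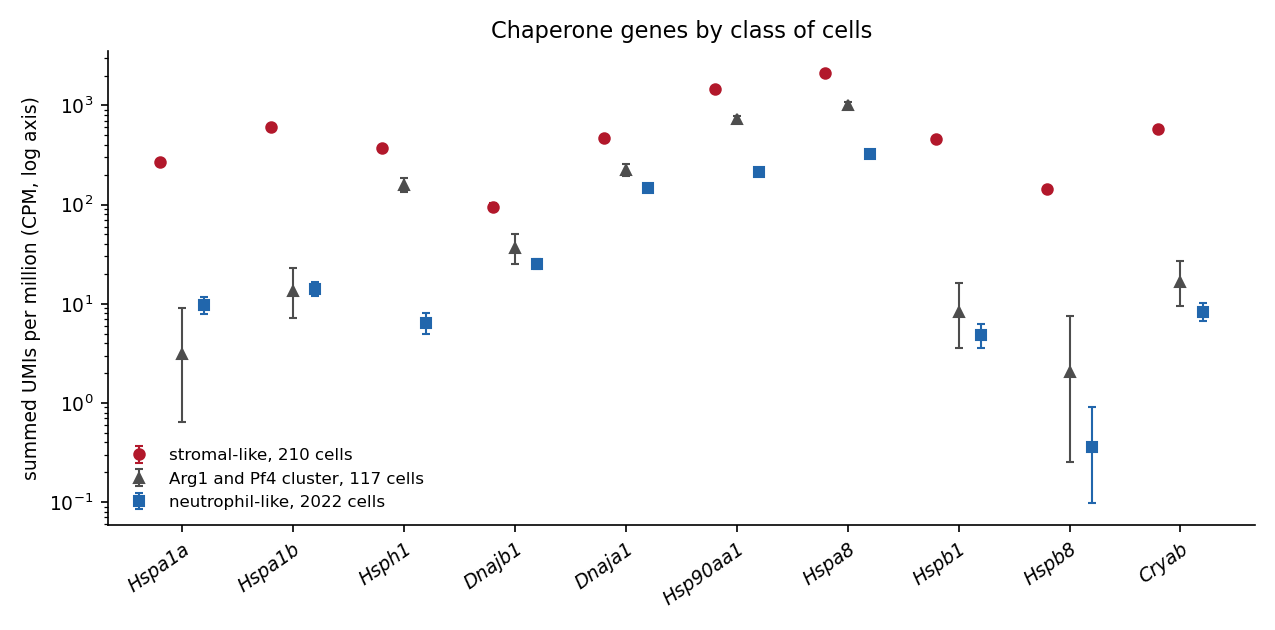
Level of each chaperone gene (summed UMIs per 1000000, log axis) in stromal-like cells (circles), the Arg1 and Pf4 cluster (triangles) and neutrophil-like cells (squares), with exact Poisson 95% intervals. Each gene had its highest level in stromal-like cells, and the gap was widest for Hspb8 (143 and 0.356 CPM in stromal-like and neutrophil-like cells).

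Among the small heat shock proteins, which form large oligomers, Hspb1 (HSP27) was at 464 CPM (446 to 482) in stromal-like and 4.80 CPM (3.61 to 6.27) in neutrophil-like cells, a ratio of 96.6 (73.8 to 129). Cryab (alpha-B crystallin) was at 573 CPM (554 to 594) and 8.27 CPM (6.68 to 10.1), a ratio of 69.3 (56.4 to 86.2). Hspb8, which acts with the co-chaperone Bag3 in selective autophagy, was at 143 CPM (133 to 153) and 0.356 CPM (0.0969 to 0.911). Its ratio of 402 (156 to 1477) rested on 4 UMIs in 2022 neutrophil-like cells. By summed UMIs the small heat shock genes therefore had the widest gaps between the classes, yet they were not found in every stromal-like cell. The interval of Cryab overlapped that of Hsph1 (45.6 to 74.0). Hspb1 had a UMI in 64.3% of stromal-like cells, Cryab in 47.1% and Hspb8 in 74.8%, compared with 2.67%, 4.35% and 0.198% of neutrophil-like cells, at median depths of 19996.5 and 3979.5 UMIs per cell. After each cell was thinned to 1000 UMIs (198 stromal-like and 1886 neutrophil-like cells deep enough), the shares were 24.2% and 0.424% for Hspb1, 17.7% and 0.901% for Cryab, and 14.1% and 0.106% for Hspb8. The gap between the classes was thus present at equal depth. Hsph1, at 29.8% and 0.689%, then had a wider gap than Cryab.

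Among the inducible HSP70 genes and their partner, Hspa1a was at 271 CPM (257 to 285) in stromal-like and 9.61 CPM (7.88 to 11.6) in neutrophil-like cells. Hspa1b was at 602 CPM (582 to 623) and 14.1 CPM (12.0 to 16.5). Hsph1 (HSP110), the nucleotide exchange factor of HSP70, was at 369 CPM (353 to 386) and 6.40 CPM (5.01 to 8.06). These are ratios of 28.2, 42.6 and 57.7, and the level varied widely from cell to cell for the HSP70 pair. A single neutrophil-like sham cell held 39 of the 108 Hspa1a UMIs of its class, and without the cell with the largest share of member UMIs in each class the log2 ratio of Hspa1a went from 4.82 to 5.41. In single stromal-like cells Hspa1a ran from 0 over a median of 0 to 12388 CPM, Hspa1b from 0 over 91.7 to 50406 CPM, and Hsph1 from 0 over 310.1 to 2990.2 CPM. Hsph1 had a UMI in 88.6% of the cells and Hspa1a in 49.5%.

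The other 4 members had smaller ratios. Hspa8, the constitutive HSC70, was at 2121 CPM (2083 to 2160.3) in stromal-like and 325 CPM (314 to 335) in neutrophil-like cells, a ratio of 6.54. Hsp90aa1, the inducible HSP90, was at 1466 CPM (1434 to 1498) and 214 CPM (205 to 223), a ratio of 6.85. The smallest ratios of the 10 were those of both J-domain genes, as Dnajb1 was at 94.1 and 25.4 CPM (3.70-fold) and Dnaja1 at 467 and 146 CPM (3.20-fold). Hspa8 had a UMI in 95.2% of stromal-like and 54.2% of neutrophil-like cells, and Hsp90aa1 in 96.2% and 41.7%.

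RNA that leaked from stromal cells into the suspension gives UMIs in droplets of other cells, so the neutrophil-like levels were set against genes that neutrophils do not make. Of 8 stromal marker genes, neutrophil-like cells held 0 to 1.20% of the stromal-like level (median 0.691%), with Prg4 at 0.365% and Dcn at 0.552%. Hspb8 was at 0.249% (0.0679 to 0.638) and Hspb1 at 1.04% (0.778 to 1.35) of the stromal-like level, inside the range of the markers. That range is loose, since its upper end, Col3a1, rested on 3 UMIs (0.247 to 3.50) and its lower end, Mfap5, on 0, and Hspb1 was above Prg4 (0.343 to 0.387) and Dcn (0.519 to 0.587). Cryab at 1.44% (1.16 to 1.77) and Hsph1 at 1.73% (1.36 to 2.18) were just above it, Hspa1b was at 2.35% and Hspa1a at 3.55%. Hsp90aa1 at 14.6%, Hspa8 at 15.3%, Dnajb1 at 27.0% and Dnaja1 at 31.3% were far above it. The neutrophil-like levels of the J-domain, HSC70 and HSP90 genes were thus well above those of the markers, and the levels of the small heat shock genes were within or close to their range, so that no expression of these was read from them. Within them, cluster 2, which carried the cycling genes Mki67 (263 CPM) and Top2a (241 CPM), had the highest Hspa8 (465 CPM, against 218 to 285 in the other 3 clusters) and Hsp90aa1 (325 CPM, against 128 to 208) from summed UMIs. The 5 cells with most Hspa8 held 23.8% of its UMIs there, and by the median over cells Hspa8 was at 226 CPM in cluster 2 and 239.5 CPM in cluster 0.

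The 117 cells led by Arg1 and Pf4 were clearly above neutrophil-like cells for Hsph1, Hsp90aa1 and Hspa8. Most other members lay nearer the neutrophil-like level, as with Dnajb1 (1.43-fold, 0.974 to 2.03) and Dnaja1 (1.53-fold, 1.32 to 1.76). By the mean over cells Dnaja1 was at 146 CPM, against 159.7 CPM in neutrophil-like cells. Hsph1 was at 159 CPM (135 to 186), 24.8-fold (18.6 to 33.3) above neutrophil-like cells, with a UMI in 37.6% of these cells. Hsp90aa1 was at 725 CPM (3.39-fold) and Hspa8 at 1009 CPM (3.11-fold). The 5 cells with the most UMIs held 47.5% of those of Hsp90aa1 and 42.5% of those of Hspa8. By the mean over cells the 2 genes were at 510.3 and 534 CPM, against 259.6 and 283 CPM in neutrophil-like cells. The HSP70 pair was not higher there: Hspa1a had 3 UMIs and Hspa1b was at 13.5 CPM, against 14.1 in neutrophil-like cells (ratio 0.953, 0.497 to 1.68). Hspb1 (8.30 CPM) and Cryab (16.6 CPM) were at 8 and 16 UMIs. Hsph1 was therefore high without Hspa1a and Hspa1b in this cluster, whereas the stromal-like cells held all 3.

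The other chaperones, 87 genes in 7 lists by role, were also higher in stromal-like cells where they could be measured. Of 58 genes at 50 CPM or more in either class, 50 were 2-fold or more higher, 0 lower, and 8 between (median log2 ratio 2.34, against 0.90 for all genes). A level 2-fold or more higher, which 48.3% of all genes had, was reached by 11 of 11 genes of the chaperonin list (chaperonins, which fold actin, tubulin and mitochondrial proteins, and Grpel1, the exchange factor of mitochondrial HSP70), 10 of 10 endoplasmic reticulum (ER) folding genes, 10 of 10 HSP90 genes and co-chaperones, 5 of 5 HSP70 genes, 10 of 15 J-domain genes and 4 of 7 nucleotide exchange factors and regulators. The other 7 small heat shock genes were all under the limit, so that in stromal-like cells Hspb1, Hspb8 and Cryab were the small heat shock genes at 50 CPM or more. The largest ratios were those of the collagen chaperone Serpinh1 (590.3 and 4.36 CPM, 135-fold), the mitochondrial chaperonins Hspe1 (937 and 17.9 CPM, 52.4-fold) and Hspd1 (779.5 and 22.8 CPM, 34.2-fold), the HSP70 co-chaperone Bag3 (99.4 and 2.94 CPM, 33.9-fold) and the mitochondrial HSP70 Hspa9 (401 and 15.9 CPM, 25.2-fold). At the other end were the ubiquitin gene Ubb, at 799 and 1497 CPM (a ratio of 0.533), Dnajc5 (0.709), Hsbp1 (0.980), Dnajc8 (1.35) and Dnajb6 (1.36). Immediate early genes, which many stimuli induce, did not share this direction: 3 of 13 were 2-fold or more higher and 7 were lower in stromal-like cells.

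To ask how ovariectomy bears on these genes in the cells that held most of them, stromal-like cells with an OVX hashtag (38 cells, median 25198 UMIs) were compared with those with a sham hashtag (54 cells, median 23128 UMIs). All 10 genes had a lower level in OVX. Cryab, Hspa1a, Hspa1b and Hspb1 were 2-fold or more lower (4 of 10), and 0 were 2-fold higher. Of the 3293 genes that reached 50 CPM, 1.15% were 2-fold or more lower and 1.25% higher. The median log2 ratio was -0.67 for the members and -0.09 for all genes. Hashtags were read poorly in stromal-like cells: 112 of the 210 (53.3%) had neither hashtag, against 5.34% of neutrophil-like cells, and 6 had both.

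**Figure D2:**
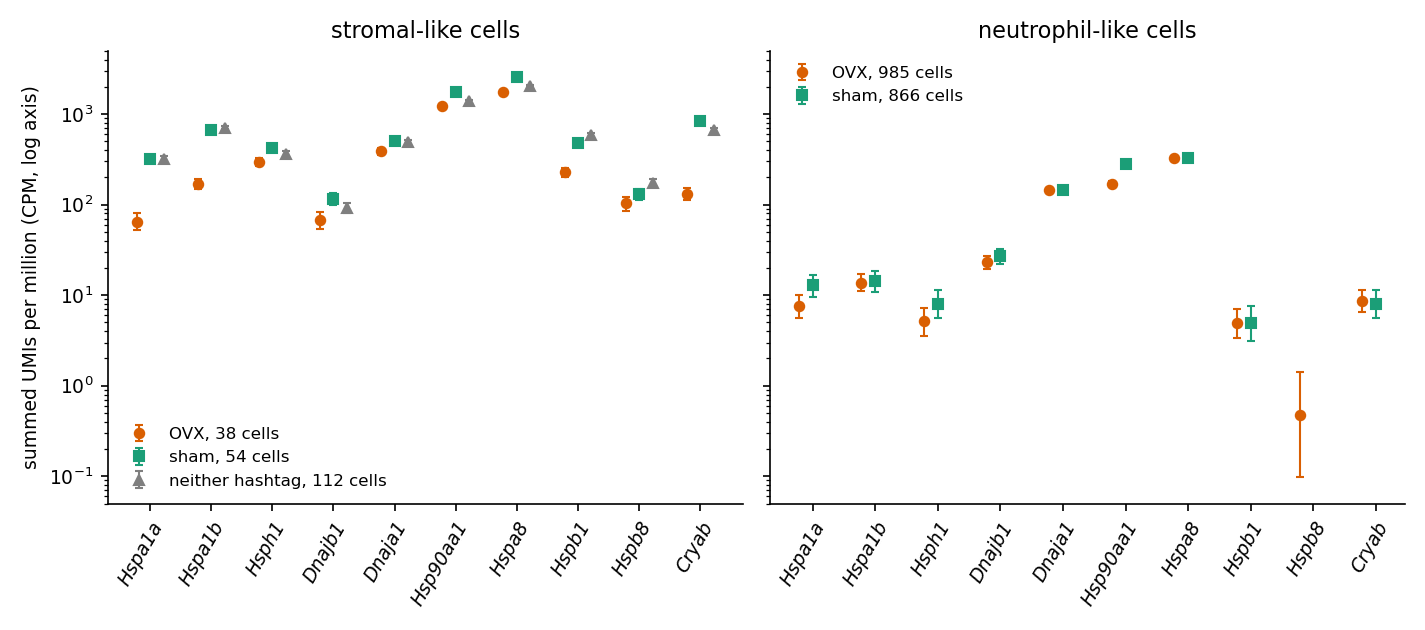
Level of each chaperone gene (summed UMIs per 1000000, log axis) in OVX (circles) and sham (squares) cells, with exact Poisson 95% intervals, for stromal-like cells (left, with cells of neither hashtag as triangles) and neutrophil-like cells (right). Among stromal-like cells Cryab, Hspa1a and Hspa1b (131, 64.9 and 168 CPM in OVX) stand furthest below their sham levels, while in neutrophil-like cells Hsp90aa1 has 171 CPM in OVX against 282 CPM in sham, and Hspb8 had no UMI in sham.

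Cryab had the largest difference. It was at 131 CPM (112 to 153) in OVX cells against 837 CPM (793 to 883) in sham stromal-like cells, 6.37-fold lower (5.43 to 7.52; log2 ratio -2.67). In single OVX cells it ran from 0 over a median of 0 to 1167 CPM, and in sham cells from 0 over 57.1 to 9199 CPM. A few cells carried most of it: 5 cells held 84.1% of the OVX and 77.3% of the sham UMIs. The cells overlapped, since 39.5% of OVX and 63.0% of sham cells had a UMI, and sham differed mainly by its upper end. Without the 5 cells with the most member UMIs in each condition the log2 ratio was -2.15.

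Hspa1a was at 64.9 CPM (51.8 to 80.4) in OVX cells against 320.0 CPM (293 to 349) in sham, 4.93-fold lower (3.91 to 6.29). Hspa1b was at 168 CPM (147 to 192) and 675 CPM (635 to 716), 4.01-fold lower (3.46 to 4.66). Both copies pointed the same way, so the direction does not turn on how their reads were split. Single cells reached 499.7 CPM of Hspa1a in OVX cells against 12388 CPM in sham, and 1162 CPM of Hspa1b in OVX cells against 50406 CPM in sham, with medians of 0 and 88.1 CPM (Hspa1a) and of 54.5 and 179.7 CPM (Hspa1b). The sum of the pair was above 1000 CPM in 1 of 38 OVX cells (2.63%, 0.0666 to 13.8) and in 17 of 54 sham cells (31.5%, 19.5 to 45.6), and 3 OVX and 13 sham cells lay near that limit. At the other end, 17 OVX and 9 sham cells had no UMI of either gene. After thinning to 1000 UMIs, Hspa1b was detected in 7.89% of OVX and 35.2% of sham cells, and Hspa1a in 2.63% and 18.5%.

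Hspb1 was at 229 CPM (203 to 256) in OVX cells against 480.4 CPM (447 to 516) in sham, 2.10-fold lower (1.83 to 2.41). Single cells ran from 0 over a median of 51.3 to 2325 CPM in OVX, and from 0 over 159.7 to 7262 CPM in sham. This difference rested on few cells, as the log2 ratio went from -1.07 to -0.34 without the 5 cells with the most member UMIs in each condition. Hspb8 differed least of the 10, with 103 CPM (86.0 to 122) in OVX cells against 129.8 CPM (113 to 149) in sham, a log2 ratio of -0.34 (-0.66 to -0.02).

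The remaining HSP70 machinery was less than 2-fold lower. Dnajb1 was at 67.2 CPM in OVX cells against 115 CPM in sham (log2 ratio -0.78, -1.16 to -0.40). Hsph1 was at 294 and 422 CPM (-0.52, -0.70 to -0.34), and Dnaja1 at 389 and 503 CPM (-0.37, -0.54 to -0.21). Hspa8 was at 1764 CPM in OVX cells against 2585 CPM in sham (-0.55, -0.63 to -0.48), with single cells from 0 over 1570.0 to 4040.0 CPM and from 159 over 2426 to 5426 CPM. Hsp90aa1 was at 1237 and 1746 CPM (-0.50, -0.59 to -0.41), with medians over cells of 860.4 and 1586 CPM. For these abundant genes the middle of the sham cells was higher as well as the upper end, and the ranges still overlapped.

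**Figure D3:**
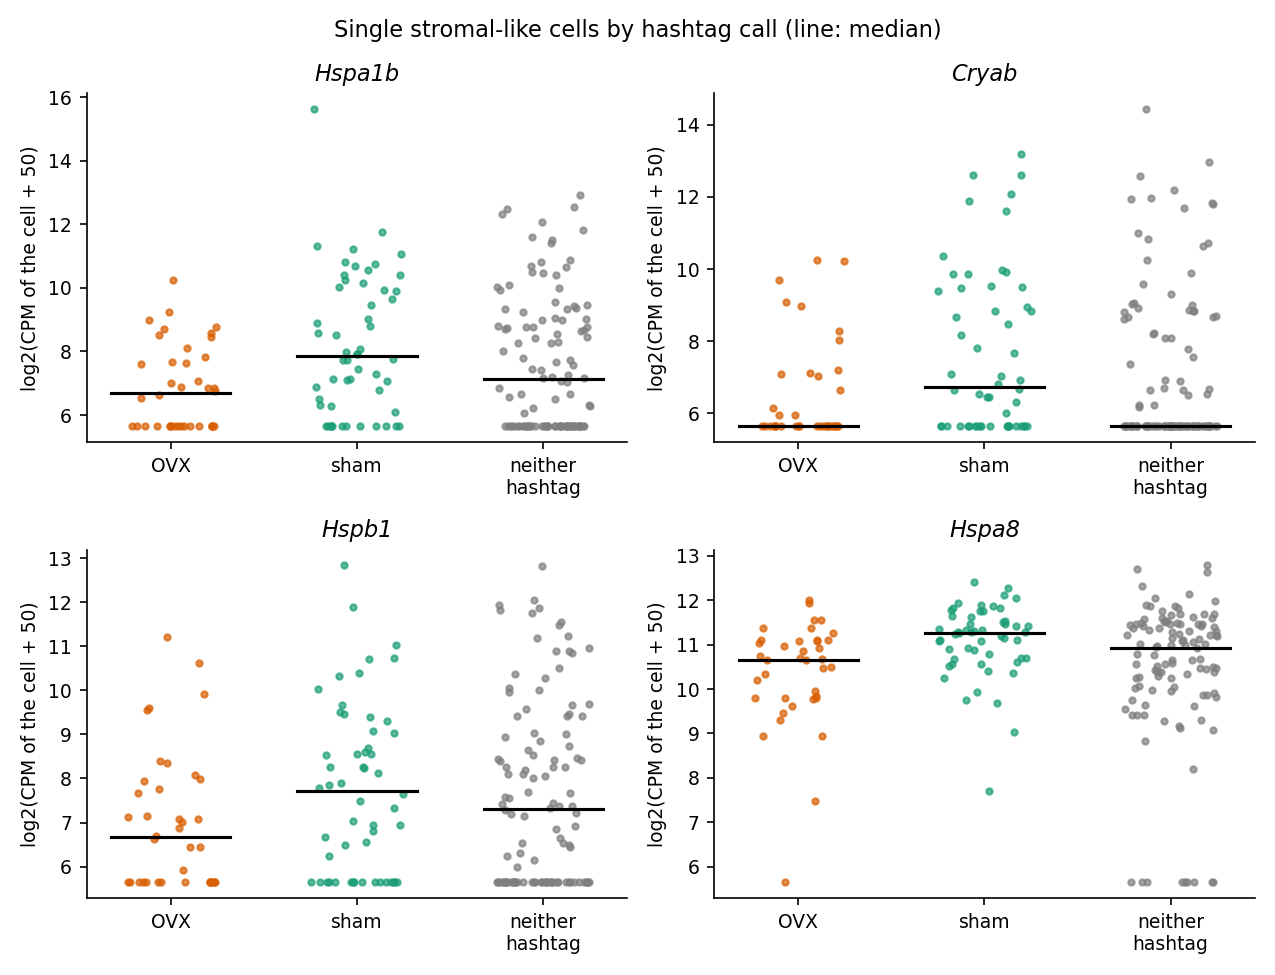
Each point is 1 stromal-like cell, placed by log2(CPM + 50) of Hspa1b, Cryab, Hspb1 or Hspa8, for 38 OVX cells, 54 sham cells and 112 cells with neither hashtag. Lines are medians. The upper ends of Hspa1b, Cryab and Hspb1 lie in sham and unassigned cells, and Hspa8 has a median of 1570.0 CPM in OVX cells against 2426 CPM in sham.

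Stromal-like cells with neither hashtag entered the comparison of classes, but not that of OVX with sham under the main hashtag rule. They had 319 CPM of Hspa1a, 710.3 CPM of Hspa1b, 672 CPM of Cryab, 585 CPM of Hspb1, 2043 CPM of Hspa8 and 1385 CPM of Hsp90aa1. The sum of Hspa1a and Hspa1b was above 1000 CPM in 23 of these 112 cells (20.5%, 13.5 to 29.2). Over all 10 genes, single cells ran from 319.7 over a median of 3497 to 9847 CPM in OVX, from 1898 over 6962 to 106578 CPM in sham, and from 759.9 over 5399 to 32756 CPM with neither hashtag. With the alternative hashtag rule (80% of at least 10 hashtag UMIs), which gave 55 of the 112 cells to sham and 0 to OVX, 28 OVX and 113 sham cells were compared. The log2 ratios were then -2.37 for Hspa1a, -2.24 for Hspa1b, -2.60 for Cryab and -1.22 for Hspb1.

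The stromal-like cells divided into 147 cells with Thbs4, Cxcl5 and Mmp13 among their leading genes and 63 cells led by Saa1 and Saa2, and the OVX level of Hspa1a, Hspa1b, Cryab and Hspb1 was lower in both. Hspa1b was at 192 CPM in OVX cells against 501 CPM in sham in the larger sub-cluster (25 and 38 cells), and at 92.9 and 1134 CPM in the smaller (13 and 16 cells). Cryab was at 124 and 884 CPM in the larger and at 154 and 714 CPM in the smaller. Hspa1a was at 81.5 and 237 CPM, and at 12.8 and 539.6 CPM. In the smaller sub-cluster a single sham cell held 236 of the 500 sham Hspa1b UMIs and 58 of the 238 of Hspa1a. The OVX level of Hspa1a there rested on 4 UMIs in 2 cells. Medians over those cells still differed, with 0 for OVX and 271 CPM for sham (Hspa1b), and 0 and 260.0 CPM (Hspa1a). Neutrophil markers made up 19256 CPM of the OVX UMIs there, against 4075 CPM for sham. Hspb1 was at 242 and 396 CPM (1.63-fold lower), and at 186 and 703 CPM (3.78-fold lower). Other genes gave unlike ratios, and the difference between the sub-clusters was not tested. Hspb8 was at 113 and 108 CPM in the larger and at 70.5 and 186 CPM in the smaller. Dnajb1 was at 61.1 and 68.9 CPM in the larger and at 86.5 and 238 CPM in the smaller.

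**Figure D4:**
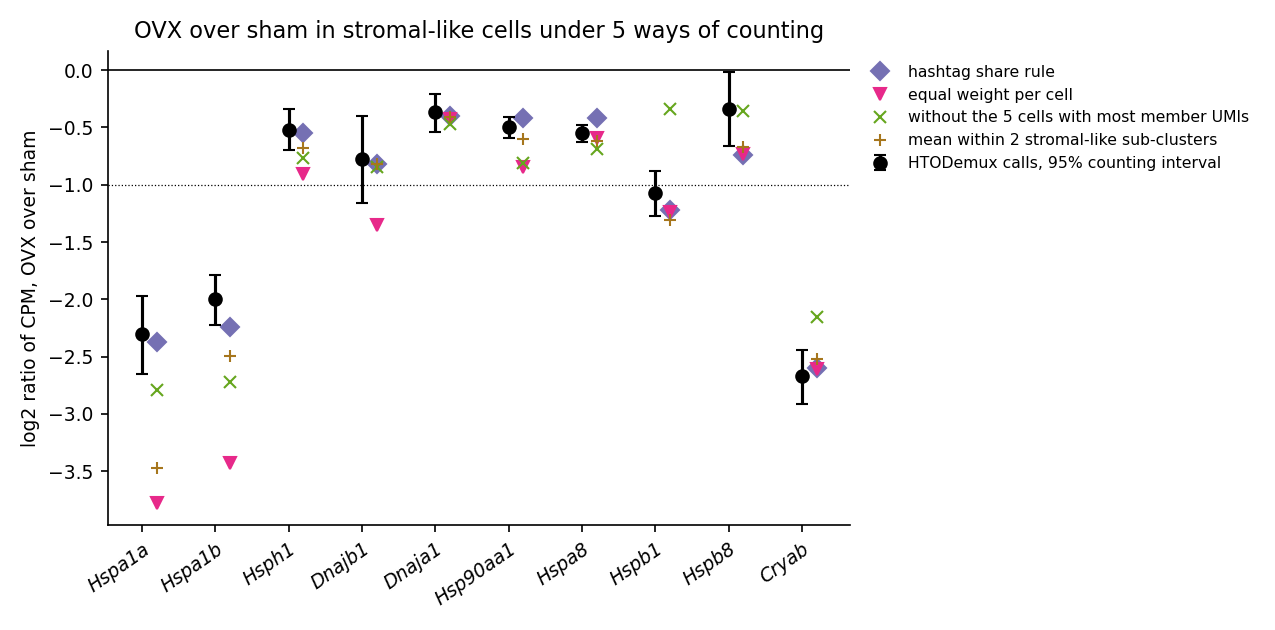
Log2 ratio of OVX over sham CPM in stromal-like cells for each gene, from the summed UMIs (circles with 95% counting intervals) and under 4 other ways of counting. The dotted line marks a 2-fold lower level. Cryab, Hspa1a and Hspa1b lie below it in all 5, and Hspb1 is at -0.34 without the 5 cells with the most member UMIs.

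Other measures also moved between the OVX and sham stromal-like cells. Neutrophil markers were at 7243 CPM in OVX cells against 3046 CPM in sham (18 of 20 with UMIs in each), Prg4 at 23033 and 14589 CPM, all stromal markers at 51332 and 39036 CPM, macrophage markers at 49.5 and 18.7 CPM, the cartilage gene Chad at 255 and 689 CPM, Top2a at 41.7 and 0 CPM, mitochondrial UMIs at 2.00% and 2.19%, and immediate early genes at 3996 and 4798 CPM. Their part in the result was not tested. Across the 210 cells the summed chaperone level had a Spearman rho of -0.05 with the neutrophil marker share, 0.00 with the stromal marker share, -0.03 with the immediate early share, -0.12 with the mitochondrial share and 0.17 with the UMIs per cell. Hspa8 and Hsp90aa1 make up much of that sum, and single genes had larger values. With the UMIs per cell rho was 0.40 for Dnajb1, 0.30 for Hspa1b, 0.28 for Hspb1 and 0.26 for Hspa1a, with the neutrophil marker share 0.21 for Dnajb1 and 0.18 for Cryab, and with the mitochondrial share -0.26 for Hspb8.

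Among genes at 50 CPM or more, the other chaperone lists had none past 2-fold between OVX and sham stromal-like cells. Few genes of any kind were, with 1.15% lower and 1.25% higher. Of 59 genes at 50 CPM or more, 42 had a log2 ratio below 0 and 17 above, with a median of -0.15. Among all 3293 genes 2019 were below 0, with a median of -0.09. The lowest were the J-domain gene Dnajb4 (40.2 and 73.0 CPM, log2 ratio -0.86), the autophagy receptor Sqstm1 (955 and 1484 CPM, -0.64), the chaperonin subunit Cct8 (223 and 337 CPM, -0.60), Bag3 (85.0 and 124 CPM, -0.55) and the ER gene Dnajb9 (163 and 226 CPM, -0.47). The highest were Hspb11 (51.8 and 35.6 CPM, 0.54), Stub1 (0.53), Dnajc10 (0.37), the ER HSP90 gene Hsp90b1 (1283 and 1003 CPM, 0.36) and Calr (709 and 576 CPM, 0.30). The 10 ER folding genes had a median of 0.01 and the 11 genes of the chaperonin list one of -0.29.

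In neutrophil-like cells (985 OVX cells, median 4579 UMIs, and 866 sham cells, median 3477.5 UMIs) none of the 9 members with a ratio differed 2-fold, and 3 members were at 50 CPM or more. At that level, 1.12% of 2324 genes were 2-fold or more lower and 2.58% higher. Hspa8 was at 325 CPM (311 to 339) in OVX cells against 325 CPM (308 to 343) in sham, and Dnaja1 at 144 CPM (135 to 154) and 145 CPM (133 to 157). Hsp90aa1 was at 171 CPM (161 to 182) in OVX cells against 282 CPM (267 to 299) in sham, 1.65-fold lower (1.52 to 1.79), and 5 cells held 35.1% of its sham UMIs. Without the 5 cells with the most member UMIs in each condition its log2 ratio went from -0.72 to -0.24. Hspb1, at 4.97 and 4.99 CPM, and Cryab, at 8.66 and 8.08 CPM, differed by less than their counting intervals. Hspb8 had 3 UMIs in OVX cells against 0 in sham, and at 1000 UMIs per cell 0 of 788 sham cells had a UMI, which allows a share of cells with a UMI at that depth of up to 0.381% (3 counts of the total) and is no limit on cells that express the gene.

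The 2 conditions differed in their mix of neutrophil-like clusters. Cluster 0, led by Retnla and stefin genes, held 330 OVX and 36 sham cells, cluster 1, led by Acod1 and Gm12840, held 407 and 582, the cycling cluster 2 held 104 and 162, and cluster 4, led by Gm42418, held 144 and 86. Within cluster 1 Hspa8 was at 342 CPM in OVX cells against 215 CPM in sham (log2 ratio 0.67, 0.49 to 0.85), within cluster 0 at 287 and 241 CPM (0.25, -0.08 to 0.60), and within cluster 4 at 218 and 169 CPM (0.37, -0.26 to 1.05). Cluster 2 had 453 and 514 CPM (-0.18, -0.35 to -0.02), but 5 cells held 41.8% of its sham UMIs, and its median over cells was higher in OVX (273 and 216 CPM). Hspa8 was thus higher in OVX by more than the counting interval in cluster 1, and the intervals of clusters 0 and 4 covered 0. Over all neutrophil-like cells its levels were equal only by summed UMIs, where 5 cells held 24.3% of the sham and 7.41% of the OVX UMIs. The mean over cells was 314 CPM for OVX and 236 CPM for sham. After thinning to equal depth, 24.1% of OVX and 19.7% of sham cells had a UMI, with overlapping intervals. Its log2 ratio ran from -0.32 to 0.41 under the alternatives run. Hsp90aa1 was at 130.5 and 94.7 CPM in cluster 0 (0.46, -0.07 to 1.04), at 147 and 266 CPM in cluster 1 (-0.86, -1.08 to -0.64), at 322 and 350.5 CPM in cluster 2 (-0.12, -0.32 to 0.08) and at 171 and 223 CPM in cluster 4 (-0.39, -0.97 to 0.23). In cluster 1, where its ratio was furthest from 0, 5 cells held 49.3% of the sham UMIs.

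Of 24 other chaperone genes at 50 CPM or more in neutrophil-like cells, 4 were 2-fold or more lower in OVX and 0 were higher. Of all 2324 genes at that level, 1.12% were lower and 2.58% higher. The median log2 ratio was -0.53 for these chaperones, against -0.08 for all genes. All 4 act in the ER: the disulfide isomerases Pdia6 (51.8 and 127 CPM, 2.45-fold lower) and Pdia3 (80.1 and 172 CPM, 2.15-fold), the stress-secreted factor Manf (82.9 and 184 CPM, 2.22-fold) and Hsp90b1 (199 and 406 CPM, 2.04-fold), and Canx was next (67.9 and 122 CPM, 1.80-fold). The sign was the same within the clusters. The intervals of the log2 ratio covered 0 for Pdia3 in cluster 4 (-0.45, -1.54 to 0.76) and Canx in cluster 0 (-0.33, -0.93 to 0.32). Hsp90b1 was at 185 and 452 CPM in cluster 0, at 192 and 348 CPM in cluster 1, at 221 and 464 CPM in cluster 2 and at 253 and 561 CPM in cluster 4. At the other end were genes such as Ubb (1589.6 and 1387 CPM, log2 ratio 0.20), Dnajc8 (0.12), Hsbp1 (-0.01) and Dnajc5 (-0.17).

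In sham, 1 cell of each class stood far apart. Of the 4682 UMIs of a stromal-like sham cell, 499 (10.7%) came from the 10 genes, with 236 UMIs of Hspa1b, 84 of Hsp90aa1, 58 of Hspa1a, 34 of Hspb1 and 29 of Cryab, and 11.7% of its UMIs were mitochondrial. The next sham stromal-like cell had 1.46% of its UMIs in the 10 genes. Of the 2067 UMIs of a neutrophil-like sham cell, 267 (12.9%) came from the 10 genes, with 201 of Hsp90aa1 and 39 of Hspa1a and 0 of Hspb1, Hspb8 and Cryab, and 113 from neutrophil markers. The next neutrophil-like sham cell had 44 of 708 UMIs (6.21%), 32 of them Hsp90aa1 and 9 Hsph1. In OVX the highest cells had 0.985% (stromal-like) and 1.24% (neutrophil-like). Without the highest cell of each condition, Hspa1a in neutrophil-like cells went from a log2 ratio of -0.77 to 1.08 and Hsp90aa1 from -0.72 to -0.46, whereas in stromal-like cells the log2 ratios were then -2.17 for Hspa1a, -1.78 for Hspa1b and -2.62 for Cryab.

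Within the 210 stromal-like cells the 10 genes varied together to different degrees. These cells share 1 library, and depth per cell enters every value, so the correlations are given without a test. OVX, sham and unassigned cells were pooled. All 10 genes were lower in OVX than in sham, and that difference enters every pair as well. Its part in the values was not tested. All 45 pairs had a positive Spearman rho, with a median of 0.30. The copies Hspa1a and Hspa1b had the highest rho of 0.79, followed by Hspa1b with Hspa8 (0.58), Hspa1b with Hsp90aa1 (0.54) and Hspa1b with Hspb1 (0.49). Hspb8 was below the median of 0.30 with all others, from 0.08 (Dnaja1) to 0.26 (Hspa1b and Hspb1). Cryab ran from 0.07 (Hsp90aa1) to 0.30 (Dnajb1) and 0.32 (Hspa1a). Outside the chaperone lists, of 7227 genes with a UMI in at least 20% of the cells, those most like the summed level of the 10 included Fxyd2 (rho 0.35), the proteasome subunits Psmc6 (0.34) and Psma4 (0.33), and Naa50 (0.31), against a median rho of 0.07.

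**Figure D5:**
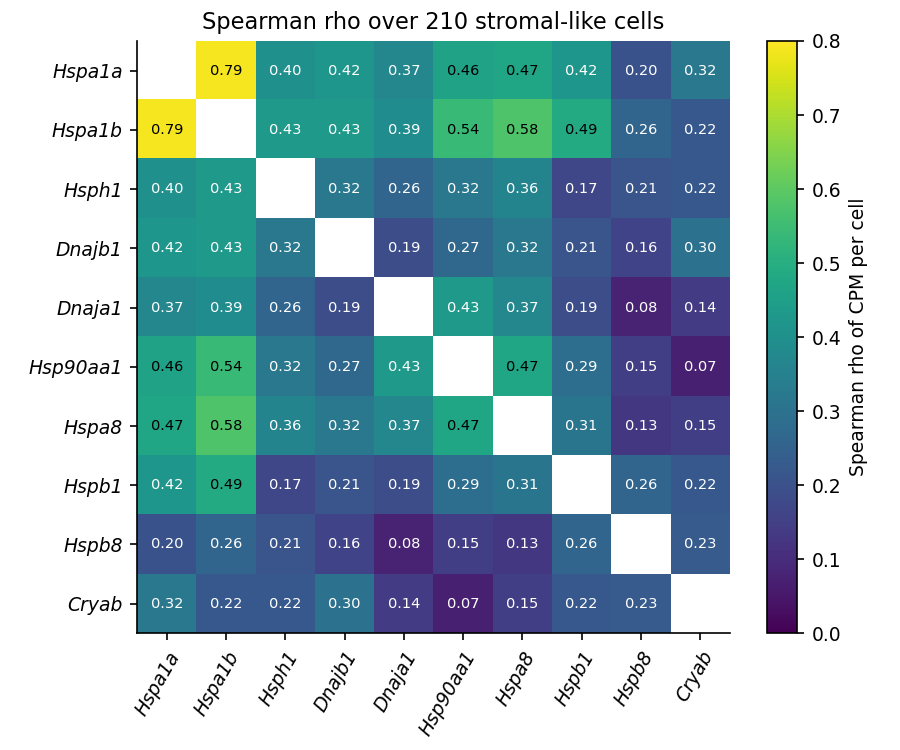
Spearman rho between the CPM per cell of each pair of the 10 genes over 210 stromal-like cells, with the colour scale from 0 to 0.8. The block of Hspa1a, Hspa1b, Hsp90aa1 and Hspa8 has values of 0.46 to 0.79, and outside it Hspa1b with Hspb1 is at 0.49. The lowest values (from 0.07) are in the Cryab and Hspb8 rows.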

How the data were processed

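Single-cell RNA-Seq was performed on cells pooled from 20 mice per condition and marked with hashtag antibodies. Reads were processed by the authors with Cell Ranger (6.0.0 per the file headers, 6.0.1 per the labels) and mm10, and whole-number UMI counts were deposited without normalization for 32285 genes and 2 hashtags in 2349 called barcodes, so that barcode calling preceded everything here. The matrix held 17681092 gene UMIs. The separate hashtag library, bulk RNA-Seq and other experiments were not analysed here.

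HTODemux assigned the hashtags at a positive quantile of 0.99 (R 4.3.3, Seurat 5.3.0). Barcodes with both or neither hashtag by these calls entered the comparison of classes. They entered no comparison of OVX with sham except under the alternative hashtag rule. Cells with both were the doublets that the hashtags reveal, and no other doublet caller was run. After scaling each cell to 10000 counts and taking logs, 2000 variable genes (without 97 chaperone genes), 30 components and 15 neighbors were used for Louvain clustering (scanpy 1.11.5, igraph 0.11.9, Python 3.11.15, resolution 0.35, giving 6 clusters). The stromal-like cluster was the one with the highest summed CPM of Prg4 and Dcn, and the Arg1 and Pf4 cluster was picked likewise. The other 4 clusters were called neutrophil-like. Of these, cluster 4 had no neutrophil marker among its leading genes, though 19 of 20 had UMIs (136000.4 CPM). The same 210 cells were stromal-like with the chaperone genes kept. A level is the summed UMIs of a group scaled to 1000000 (CPM). Ratios (folds) have exact conditional binomial, levels exact Poisson and shares exact Clopper-Pearson 95% intervals, which cover counting error only. A gene was called at 2-fold or more among genes at 50 CPM or more in either group. A fold was given only with over 3 UMIs in a group. No p-value was computed, since 1 pool per condition leaves no replicate. Scripts were tested on simulated data. Alternatives are under the closing section.

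The 10 genes, the chaperone lists and the marker lists were chosen with earlier results of these data known. The text names the 10 genes, the 5 largest and 5 smallest ratios over the chaperone lists in each comparison, and the 5 genes most correlated with the summed level. Some genes that this rule names are not reported here. The sub-clusters, the values within clusters and the description of the highest cells were chosen after seeing the data. Gene positions are from GENCODE vM21 and start regions from RefSeq.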

Additional observations from a re-analysis of the deposited data

How the results depend on the processing

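Of the counts of members 2-fold higher or lower, those for stromal-like over neutrophil-like cells (10 higher, 0 lower) and for OVX over sham in stromal-like cells (0 higher, 4 lower) stayed within 1.5 times under all alternatives run, from 8 to 10 and from 3 to 5. The count of 4 became 3 without the 5 cells with the most member UMIs, after centring on the median of all genes and with barcodes filtered at 500 genes and 10% mitochondrial UMIs, and 5 with equal weight per cell or 1000 UMIs per cell, where Hspa1b was at a log2 ratio of -3.43 and -3.58. In neutrophil-like cells the count of 0 lower in OVX became 1 with the chaperone genes kept in the clustering (Hsph1, -1.15), 3 with equal weight per cell (Hsph1 -2.37, Hspa1a -1.54, Hsp90aa1 -1.05) and 1 at 1000 UMIs per cell (Hspa1a, -1.98), and the count of 0 higher became 1 without the cell with the largest member share (Hspa1a, 1.08). These counts include genes under 50 CPM, and the neutrophil-like values turn on single cells. In stromal-like cells the equal-weight value of Hspa1b leans on 1 sham cell at 50406 CPM, against a sham mean over cells of 1491 CPM. Its value at 1000 UMIs per cell rests on 3 of 38 OVX cells with a UMI. The alternatives without that cell, within the stromal-like sub-clusters, without the Gm42418 cluster and with other totals were added after seeing the data. Of the values recomputed, 488 moved by less than the counting interval or, for counts, by less than 1.5 times, 117 moved more, and no called value changed sign. Values that were not called could change sign. For Hspa1a in neutrophil-like cells the log2 ratio of -0.77 (-1.36 to -0.18) became 1.08 without the cell with the largest member share. No paired analysis was possible because each condition was 1 pool in 1 library. Depth limits the neutrophil-like values, where Hspb1, Hspb8, Cryab, Hsph1, Hspa1a and Hspa1b had 4 to 159 UMIs in 2022 cells.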
